A study of Mus musculus with 9 samples.

Results

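The genes described here are 32 genes of the NRF2, glutathione and antioxidant system, defined by a list of gene names. The list was drawn up with earlier results of these data known. They were measured by RNA sequencing in 4T1-TGL cells in culture; 4T1 is a mammary carcinoma line of BALB/c mice. All 32 symbols were found among the 19072 genes of the tables, and all 32 were listed in every library. The 9 libraries comprised 3 of a second Malat1 knockout line (KO2), 3 of a first Malat1 knockout line (KO1) and 3 of 4T1-TGL cells with intact Malat1 (Ctrl). Each group was grown in DMEM/F12 medium. The labels state neither how Malat1 was disrupted nor whether each line is a single clone. Nor do they say whether the 3 libraries of a group came from separate cultures, so the p-values measure spread between libraries that may be technical.

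NRF2, encoded by Nfe2l2, is a transcription factor that KEAP1 holds in the cytoplasm and delivers to the proteasome. Oxidants and electrophiles modify cysteines of KEAP1, after which NRF2 accumulates and binds antioxidant response elements in front of its target genes. Its targets make glutathione, reduce thioredoxin and peroxiredoxins, conjugate and export electrophiles and feed NADPH to these reactions. In tumour cells the same programme is known for protecting against oxidative damage and drugs.

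Total expected counts per library lay between 30655924 and 35406395. Malat1 itself (chromosome 19, 5795690 to 5802672, GRCm38) had 119, 160 and 98.1 CPM (counts scaled to library size with TMM factors) in KO2, 3.88, 3.69 and 2.63 CPM in KO1 and 510, 402 and 474 CPM in Ctrl. The KO2 line thus kept 27.2% of the control mean and the KO1 line 0.735%. The summed level of 8 epithelial markers was 2117 to 2316 CPM in KO2, 1220 to 1458 CPM in KO1 and 750 to 766 CPM in Ctrl. Cldn7 was at 0 in KO1. The 8 mesenchymal or fibroblast markers summed to 4039 to 4306 CPM in KO2, 2498 to 3123 CPM in KO1 and 3082 to 3120 CPM in Ctrl, where Col3a1 and Lum were at 0. Leukocyte markers (7 of 8 in the tables) summed to at most 37.4 CPM, 5 endothelial markers to at most 3.22 CPM and 4 adipocyte markers to at most 0.17 CPM. The part of these markers in the results was not tested. In bulk RNA, fewer cells of a type and less RNA per cell cannot be told apart.

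KO1 replicates 1 and 2 stood apart from each other in the 32 genes described here. Replicate 2 was the highest of the 3 KO1 libraries for 24 of them, while replicate 1 was the lowest for 22. In KO2, replicate 2 was the lowest of its group for 22. In Ctrl, replicate 1 was the highest for 19 and replicate 2 the lowest for 19. The median coefficient of variation was 4.51% in KO2, 10% in KO1 and 8.65% in Ctrl.

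RefSeq promoter windows (GRCm38.p6, from 250 bases before to 50 after each annotated start) were matched for 27 of the 32 genes, all but Gclc, Gsr, Gsta4, Prdx6 and Abcc1. The core antioxidant response element, TGACNNNGC on either strand, was found in 12 of these 27 genes (44.4%), against 16.8% of the 10175 tested genes with a window, 14% of all 27025 genes with one and 12.4% of all windows. The AP-1 site TGANTCA, which can overlap it, was found in 4 of the 27 (14.8%), against 6.41% of the tested genes and 8.97% of all genes. Of the 12 genes with the element, 8 were higher and 1 lower in KO2 than in Ctrl (24.6% and 29.5% of all tested genes). Of the 15 without it, 8 were higher and 3 lower. In KO1 against Ctrl, 1 of the 12 was higher and 3 lower, and 1 of the 15 higher and 4 lower. The shares of all tested genes were 15.6% and 14.9% there. Between KO2 and KO1, 7 of the 12 were higher and 0 lower, and 10 of the 15 higher and 2 lower. The shares of all tested genes were then 25.5% and 29.5%. A match is a description of the letters and not a binding site. The following 6 elements, with 10 flanking bases on either side and the element in capitals, are shown because their genes cover all 3 outcomes in KO2: higher (Nfe2l2, G6pdx, Sod1), not called (Txnrd1, Prdx1) and lower (Gclm). They were picked after the values were seen.
Nfe2l2 (chr2:75704885-75704913, minus strand): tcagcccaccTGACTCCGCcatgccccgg
G6pdx (chrX:74428919-74428947, plus strand): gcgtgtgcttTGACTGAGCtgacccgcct
Sod1 (chr16:90220696-90220724, minus strand): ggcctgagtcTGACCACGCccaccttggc
Txnrd1 (chr10:82859104-82859132, minus strand): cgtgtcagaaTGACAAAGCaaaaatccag
Prdx1 (chr4:116685456-116685484, minus strand): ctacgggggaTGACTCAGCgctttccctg
Gclm (chr3:122245413-122245441, minus strand): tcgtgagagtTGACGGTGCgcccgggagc

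The elements began 240 (Nfe2l2), 57 (G6pdx), 56 (Sod1), 92 (Txnrd1), 133 (Prdx1) and 134 (Gclm) bases before an annotated start. The Prdx1 element overlapped an AP-1 site, and the other 5 did not.

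Most of the 32 genes were higher in KO2, and most were close to control, or lower, in KO1. Further genes of the same pathways, given below, had 25 higher and 33 lower of 93 tested in KO2. They included genes far below the level of the 32 genes, and most such genes called in KO2 were lower. In KO2, 19 of the 32 genes were higher than in Ctrl and 4 lower at an adjusted p under 0.05, by edgeR's quasi-likelihood test with Benjamini-Hochberg adjustment over all 13682 tested genes. Of all tested genes, 24.6% were called higher and 29.5% lower in that comparison. In KO1, 2 genes were higher and 8 lower, where 15.6% and 14.9% of all tested genes were called, so that the 31.2% of the 32 genes called in either direction was near the background of 30.5%. In either direction, 71.9% of the 32 genes were called in KO2 against Ctrl, where the background was 54.1%. Tested directly, 20 genes were higher and 2 lower in KO2 than in KO1, against 25.5% and 29.5% of all tested genes (55.0% in either direction). The median log2 fold change of the 32 genes was 0.33 for KO2 against Ctrl, -0.07 for KO1 against Ctrl and 0.40 for KO2 against KO1, beside -0.03, -0.00 and -0.02 over all tested genes. Under total count scaling the median over all genes was -0.127 for KO2 against KO1 and 33.4% of all called genes were higher, beside 46.4% with TMM; 16 of the 32 genes were then higher and 4 lower. For KO2 against Ctrl that scaling gave 16 higher and 7 lower of the 32. Of all 13682 tested genes, 7413 were then called, and 35.8% of those called were higher.

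The 32 genes are abundant, with a median of 94.7 CPM over the 9 libraries against 28.3 CPM for all tested genes. Among the 8984 tested genes at or above the level of the lowest of them (Cbr1, 13.1 CPM), 28.9% were higher and 26.6% lower in KO2 than in Ctrl (55.5% in either direction). For KO1 against Ctrl these shares were 14.6% and 15.1% (29.7%), and for KO2 against KO1 30.6% and 25.8% (56.4%). Groups did not overlap in CPM for 26 of the 32 genes between KO2 and Ctrl (background 65.7%), for 13 between KO1 and Ctrl (42.7%) and for 25 between KO2 and KO1 (62.2%). Per kilobase, the summed FPKM of the 32 genes was 3866, 3636 and 3797 in KO2, 2438, 3029 and 2633 in KO1 and 2792, 2564 and 2655 in Ctrl. The KO2 libraries lay above all others, and the KO1 and Ctrl libraries overlapped.

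In Ctrl the most abundant transcripts per kilobase were Gpx4 at 357 ± 28.0 FPKM, Prdx1 at 349 ± 56.1 FPKM, Gpx1 at 304 ± 0.862 FPKM, Txn1 at 242 ± 35.5 FPKM, Sod1 at 217 ± 15.3 FPKM and Gstp1 at 176 ± 9.43 FPKM (SD, n = 3). The neighbours Gpx4 and Prdx1 were closer than their spread, as were Prdx1 and Gpx1, and Txn1 and Sod1, so their order is not resolved. At the low end stood Nqo1 at 8.01 ± 1.03 FPKM, Gss at 10.1 ± 0.802 FPKM and Blvrb at 13.1 ± 1.57 FPKM (SD, n = 3). In KO2 the order changed, with Sod1 first at 748 ± 32.8 FPKM and Gstp1 next at 467 ± 26.8 FPKM, above Gpx4 at 429 ± 14.7 FPKM (SD, n = 3). Sod2 had 8.43 ± 0.485 FPKM in KO2 and was, with Gss at 8.18 ± 0.397 FPKM, at the bottom (SD, n = 3).

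**Figure D1:**
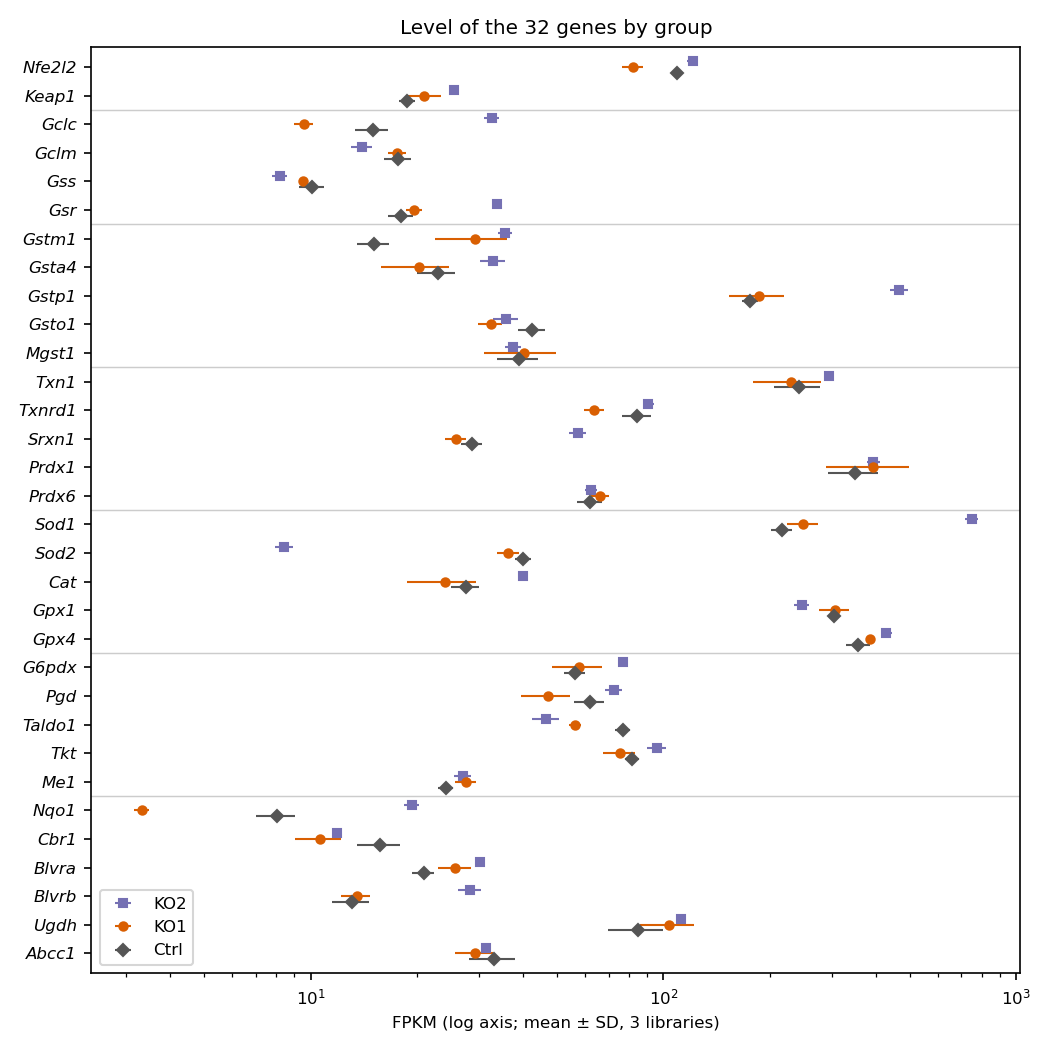
Level of each of the 32 genes in FPKM (log axis) as the mean ± SD of the 3 libraries per group, with KO2 as squares, KO1 as circles and Ctrl as diamonds, ordered by role with grey lines between roles. In KO2, Sod1 (748 FPKM) and Gstp1 (467 FPKM) stand to the right of both other groups, Sod2 (8.43 FPKM) stands far to the left, and Nqo1 is spread over the widest range, from 3.32 FPKM in KO1 to 19.4 FPKM in KO2.

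The first pair of genes encodes the transcription factor of the pathway and its inhibitor, of which only the transcripts were measured. Nfe2l2 (chromosome 2, 75675513 to 75704663), which encodes NRF2, had 314, 294 and 313 CPM in KO2, 195, 179 and 205 CPM in KO1 and 253, 270 and 262 CPM in Ctrl. No group overlapped another, with KO2 highest and KO1 lowest. The log2 fold change was 0.23 ± 0.0677 in KO2 (SE; edgeR adjusted p = 0.0137) and -0.44 ± 0.0679 in KO1 (SE; edgeR adjusted p = 0.000608), and the direct difference of KO2 from KO1 was 0.67 ± 0.0681 (SE; edgeR adjusted p = 1.03e-05). The small rise of Nfe2l2 in KO2 depended on the scaling. It was 0.15 and not called under total count scaling, and the adjusted p was 0.0524 without KO2 replicate 1. Keap1 (chromosome 9, 21229730 to 21239332), the inhibitor, had 87.6, 90.8 and 91.7 CPM in KO2, 59.3, 76.0 and 68.8 CPM in KO1 and 64.1, 59.3 and 64.3 CPM in Ctrl. All KO2 libraries were above the others, and KO1 overlapped Ctrl. Keap1 rose in KO2 (log2 fold change 0.53; edgeR adjusted p = 0.000458), while its value in KO1 was 0.12 (edgeR adjusted p = 0.331, and 0.0459 without KO1 replicate 1).

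Glutathione is made by glutamate-cysteine ligase, whose catalytic subunit is encoded by Gclc and its modifier subunit by Gclm, and by glutathione synthetase, encoded by Gss. Gclc (chromosome 9, 77754535 to 77794489) had 117, 120 and 111 CPM in KO2, 33.7, 30.4 and 30.4 CPM in KO1 and 46.6, 57.0 and 48.0 CPM in Ctrl. The groups were fully separate, with KO2 highest and KO1 lowest. Gclc changed on the log2 scale by 1.19 ± 0.0875 in KO2 (SE; edgeR adjusted p = 7.62e-07), or 2.29-fold, and -0.68 ± 0.0883 in KO1 (SE; edgeR adjusted p = 0.000179), or 0.624-fold. The direct difference of KO2 from KO1 was 1.87 (edgeR adjusted p = 2.25e-08), or 3.67-fold.

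The modifier subunit gene did not follow the catalytic one. Gclm (chromosome 3, 122245487 to 122267215) had 31, 27.2 and 30.5 CPM in KO2, 32.6, 36.9 and 34.0 CPM in KO1 and 39.2, 33.5 and 33.8 CPM in Ctrl. Each KO2 library was below each library of the other groups. The log2 fold change of Gclm was -0.26 in KO2 (edgeR adjusted p = 0.0288) and -0.04 in KO1 (edgeR adjusted p = 0.775). The call in KO2 was lost without Ctrl replicate 1 (adjusted p = 0.119), without KO2 replicate 2 (adjusted p = 0.114) and without KO2 replicate 3 (adjusted p = 0.0513), and also with no filter or a replicate block. Between the lines Gclm differed by -0.22 (edgeR adjusted p = 0.0553), which was called without Ctrl replicate 1 (adjusted p = 0.0454) and without KO1 replicate 1 (adjusted p = 0.0436). Gss stood at 16.5 ± 0.749 CPM in KO2, 17.8 ± 0.10 CPM in KO1 and 19.3 ± 1.70 CPM in Ctrl (SD, n = 3), with a log2 fold change of -0.23 in KO2 that just missed the threshold (edgeR adjusted p = 0.0501, and 0.0381 without Ctrl replicate 3 or 0.0124 with total count scaling).

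Gsr (chromosome 8, 33653238 to 33698162), which encodes the glutathione reductase that regenerates glutathione with NADPH, had 93.1, 90.5 and 96.8 CPM in KO2, 48.1, 53.6 and 50.2 CPM in KO1 and 50.7, 43.3 and 47.0 CPM in Ctrl. The KO2 libraries stood far above the rest, and KO1 overlapped Ctrl. Gsr rose 1.99-fold in KO2 (log2 fold change 0.99 ± 0.077, SE; edgeR adjusted p = 1.21e-06), with 0.11 in KO1 (edgeR adjusted p = 0.32).

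**Figure D2:**
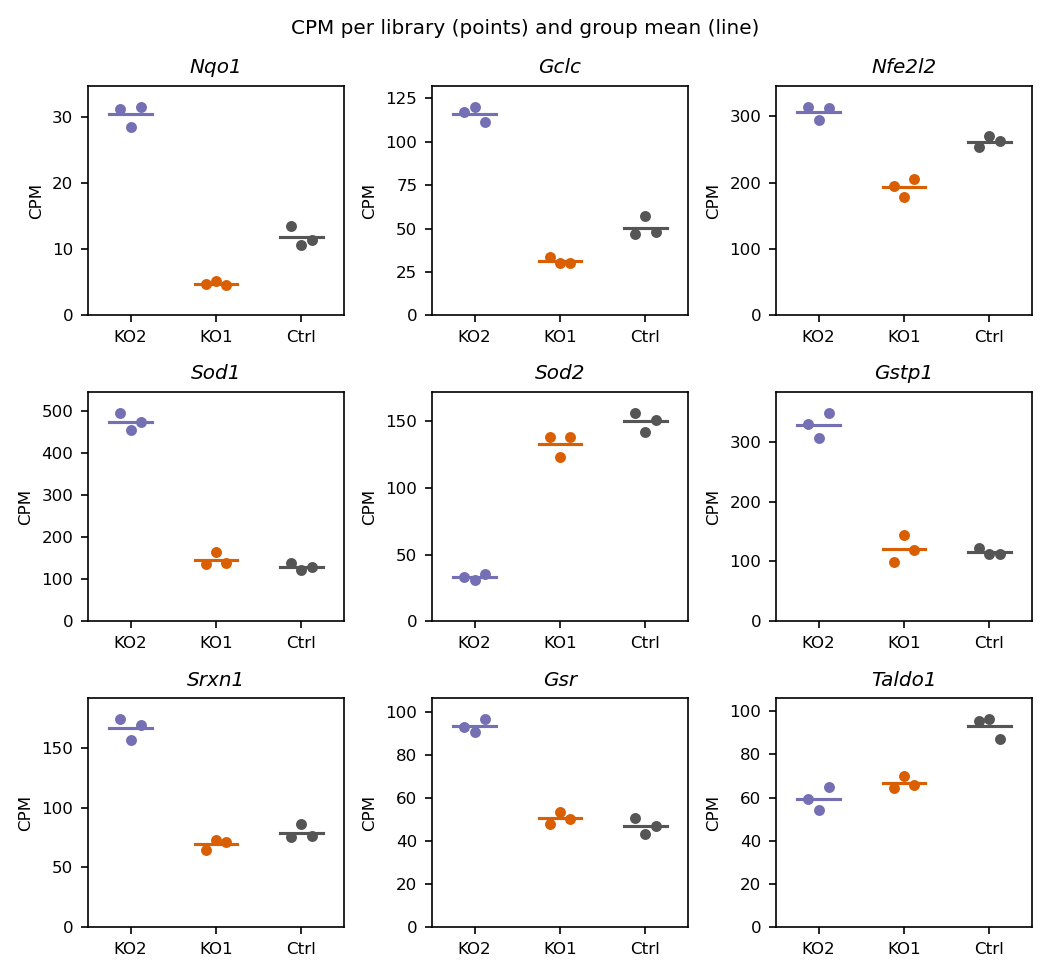
CPM after TMM scaling (linear axis from 0) of 9 of the genes in each library (points, with replicate 1 to 3 from left to right) and the group mean (line), with KO2, KO1 and Ctrl from left to right. Nqo1, Gclc, Sod1, Gstp1, Srxn1 and Gsr have their 3 KO2 libraries above all others, Sod2 has them below, and Taldo1 is lower in both knockout lines than in Ctrl.

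Glutathione transferases couple glutathione to electrophiles. Gstp1 (chromosome 19, 4035411 to 4037912), a cytosolic pi-class enzyme, had 329, 306 and 348 CPM in KO2, 98.9, 145 and 119 CPM in KO1 and 123, 113 and 113 CPM in Ctrl. KO2 was separate from both other groups, which overlapped. Gstp1 rose 2.82-fold in KO2 (log2 fold change 1.5 ± 0.12, SE; edgeR adjusted p = 1.73e-06), and its value in KO1 was 0.06 (edgeR adjusted p = 0.752). The near-identical copies Gstp2 and Gstp3 reached at most 0.442 CPM in any library, and the sum over the 3 genes was 329, 307 and 349 CPM in KO2, 99.2, 145 and 119 CPM in KO1 and 123, 114 and 113 CPM in Ctrl. Gstp1 lies 1758 kb from Malat1 on the same chromosome.

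Gstm1 (chromosome 3, 108012250 to 108017973), a mu-class enzyme, was higher in both lines. It had 47.8, 44.0 and 48.7 CPM in KO2, 27.0, 43.8 and 36.7 CPM in KO1 and 20.5, 16.7 and 19.2 CPM in Ctrl. Every knockout library was above every control library, and KO1 libraries spread widely. Gstm1 rose on the log2 scale by 1.32 ± 0.153 in KO2 (SE; edgeR adjusted p = 3.6e-05) and by 0.93 ± 0.153 in KO1 (SE; edgeR adjusted p = 0.000944). The direct difference, 0.39 (edgeR adjusted p = 0.0465), was not called under 14 of 20 alternatives. The call was lost when Ctrl replicate 1 or 3, KO1 replicate 1 or 3, or any KO2 replicate was left out, with adjusted p from 0.0531 to 0.118; without KO1 replicate 1 the difference was 0.22. Mu-class genes are close copies, so reads could have been split between them.

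Of the other transferases, Gsta4, which clears the lipid peroxidation product 4-hydroxynonenal, had 31.6 ± 2.43 CPM in KO2, 18.1 ± 3.99 CPM in KO1 and 20.9 ± 2.47 CPM in Ctrl (SD, n = 3). It rose in KO2 (log2 fold change 0.60; edgeR adjusted p = 0.00588) and was at -0.21 in KO1 (edgeR adjusted p = 0.328). Gsto1, an omega-class enzyme, had 42.6 ± 3.44 CPM in KO2, 35.9 ± 2.67 CPM in KO1 and 48.0 ± 4.56 CPM in Ctrl (SD, n = 3). Gsto1 fell in KO1 (log2 fold change -0.42; edgeR adjusted p = 0.00595), and its -0.17 in KO2 was not called (edgeR adjusted p = 0.143, against 0.0405 with total count scaling). Between the lines it differed by 0.25 (edgeR adjusted p = 0.0447), and this call was lost under 10 alternatives, including on leaving out Ctrl replicate 1, KO1 replicate 2 or 3, or KO2 replicate 1 or 3 (adjusted p from 0.0577 to 0.153), with 0.14 under total count scaling. Mgst1, the membrane-bound transferase, averaged 34.9 ± 1.63 CPM in KO2, 34.9 ± 8.12 CPM in KO1 and 34.4 ± 4.52 CPM in Ctrl (SD, n = 3). Its groups overlapped in every comparison.

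Among the 5 thioredoxin and peroxiredoxin genes, Srxn1 had the largest change in KO2 and Txnrd1 in KO1. Srxn1 (chromosome 2, 152105524 to 152111376), which encodes the sulfiredoxin that repairs overoxidised peroxiredoxins, had 174, 156 and 169 CPM in KO2, 64.2, 73.3 and 71.1 CPM in KO1 and 75.4, 85.9 and 76.1 CPM in Ctrl. The KO2 libraries were highest, and the KO1 libraries were all just below those of Ctrl. Srxn1 rose 2.10-fold in KO2 (log2 fold change 1.07 ± 0.08, SE; edgeR adjusted p = 8.81e-07), while its -0.19 in KO1 was not called (edgeR adjusted p = 0.101). Txnrd1 (chromosome 10, 82833951 to 82897724), the cytosolic thioredoxin reductase, had 321, 303 and 328 CPM in KO2, 220, 195 and 208 CPM in KO1 and 259, 312 and 270 CPM in Ctrl. KO1 was below both other groups, and KO2 overlapped Ctrl through Ctrl replicate 2. Txnrd1 fell in KO1 (log2 fold change -0.43; edgeR adjusted p = 0.00198) and was at 0.18 in KO2 (edgeR adjusted p = 0.0829, against 0.0156 without Ctrl replicate 2 and 0.0381 on leaving out KO1 replicate 2). The direct difference of KO2 from KO1 was 0.61 (edgeR adjusted p = 8.11e-05).

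The substrate thioredoxin, encoded by Txn1, had 307 ± 6.00 CPM in KO2, 223 ± 50.2 CPM in KO1 and 240 ± 34.5 CPM in Ctrl (SD, n = 3). Its log2 fold change was 0.36 in KO2 (edgeR adjusted p = 0.0576, called by DESeq2 and limma-voom, and 0.0279 without Ctrl replicate 1 and 0.00423 without KO1 replicate 2) and -0.10 in KO1 (edgeR adjusted p = 0.631, but 0.0431 without KO1 replicate 2). KO2 exceeded KO1 for Txn1 by 0.46 (edgeR adjusted p = 0.0202), a call lost without KO1 replicate 1 or 3 or KO2 replicate 1 or 3 (adjusted p from 0.0518 to 0.0787). Prdx1, a peroxiredoxin that removes hydrogen peroxide, had 579, 534 and 574 CPM in KO2, 420, 679 and 465 CPM in KO1 and 542, 394 and 480 CPM in Ctrl, so that all groups overlapped. Its log2 fold change was 0.25 in KO2 (edgeR adjusted p = 0.237) and 0.14 in KO1 (edgeR adjusted p = 0.568). Between the lines Prdx1 differed by 0.11 (edgeR adjusted p = 0.613). On leaving out KO1 replicate 2, Prdx1 was called at 0.27 in KO2 against Ctrl (adjusted p = 0.0461) and at 0.37 in KO2 against KO1 (adjusted p = 0.02). Prdx6, which also reduces phospholipid peroxides, had 152 ± 6.81 CPM in KO2, 150 ± 9.22 CPM in KO1 and 143 ± 11.5 CPM in Ctrl (SD, n = 3) and overlapped throughout.

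The superoxide dismutase genes showed the widest split in KO2. Sod1 (chromosome 16, 90220762 to 90226333), the cytosolic copper and zinc enzyme, had 496, 456 and 474 CPM in KO2, 137, 164 and 139 CPM in KO1 and 139, 122 and 130 CPM in Ctrl. KO2 lay far above both other groups, and KO1 overlapped Ctrl. Sod1 rose 3.64-fold in KO2 (log2 fold change 1.86 ± 0.0861, SE; edgeR adjusted p = 1.78e-08), with 0.17 in KO1 (edgeR adjusted p = 0.15). Sod2 (chromosome 17, 13007839 to 13018119), the mitochondrial manganese enzyme and a known target of NF-kB as well, had 33.2, 31.2 and 35.5 CPM in KO2, 138, 123 and 138 CPM in KO1 and 156, 142 and 151 CPM in Ctrl. The KO2 libraries were far below all others, and the KO1 libraries were slightly below Ctrl without overlap. Sod2 fell to 0.222 of the control level in KO2 (log2 fold change -2.17 ± 0.0794, SE; edgeR adjusted p = 2.57e-09), and its -0.17 in KO1 was not called (edgeR adjusted p = 0.111). Between the lines, Sod1 differed by 1.69 (edgeR adjusted p = 3.49e-08) and Sod2 by -2.0 (edgeR adjusted p = 4.9e-09).

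Hydrogen peroxide made by these enzymes is removed by catalase and glutathione peroxidases. Cat, the catalase gene, had 100, 107 and 107 CPM in KO2, 44.7, 70.9 and 60.2 CPM in KO1 and 73.4, 62.0 and 69.1 CPM in Ctrl. KO2 was separate from the other groups, which overlapped through KO1 replicate 2. Cat rose in KO2 (log2 fold change 0.62 ± 0.138, SE; edgeR adjusted p = 0.00312), and its -0.22 in KO1 (edgeR adjusted p = 0.264) was called only without KO1 replicate 2 among the alternatives run (adjusted p = 0.0335). Gpx4, the selenoenzyme that reduces lipid peroxides in membranes and restrains ferroptosis, had 414 ± 11.1 CPM in KO2, 345 ± 4.83 CPM in KO1 and 327 ± 27.5 CPM in Ctrl (SD, n = 3). It rose in KO2 (log2 fold change 0.34; edgeR adjusted p = 0.00163) and was at 0.08 in KO1 (edgeR adjusted p = 0.417), with a direct difference of 0.26 (edgeR adjusted p = 0.00786) that was 0.15 and not called under total count scaling. Gpx1, the cytosolic peroxidase, had 262 ± 13.0 CPM in KO2, 301 ± 29.2 CPM in KO1 and 305 ± 3.29 CPM in Ctrl (SD, n = 3). Its fall in KO2 (log2 fold change -0.22; edgeR adjusted p = 0.0325) was lost on leaving out any 1 of the KO2 or Ctrl libraries (adjusted p from 0.0506 to 0.122). Its difference between the lines (-0.20; edgeR adjusted p = 0.0466) was lost on leaving out any library but KO1 replicate 1 (adjusted p from 0.0547 to 0.199), and it was -0.13 without KO1 replicate 2.

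NADPH for these reductases comes from the pentose phosphate pathway and malic enzyme. G6pdx, the first enzyme of the oxidative branch, had 202, 204 and 216 CPM in KO2, 122, 170 and 144 CPM in KO1 and 153, 135 and 144 CPM in Ctrl. All KO2 libraries were above the rest, and KO1 surrounded Ctrl. G6pdx rose in KO2 (log2 fold change 0.53 ± 0.106, SE; edgeR adjusted p = 0.00159), with 0.01 in KO1 (edgeR adjusted p = 0.945). Pgd, which catalyses the second NADPH-forming step, had 163, 155 and 176 CPM in KO2, 82.7, 115 and 100 CPM in KO1 and 148, 122 and 130 CPM in Ctrl. The groups were separate, with KO2 highest and KO1 lowest. The log2 fold change of Pgd was 0.30 in KO2 (edgeR adjusted p = 0.0417), -0.43 in KO1 (edgeR adjusted p = 0.0151) and 0.73 between the lines (edgeR adjusted p = 0.000279). The KO2 call was lost under 10 of 20 alternatives, among them those without Ctrl replicate 2 or 3, KO1 replicate 3 or any KO2 replicate (adjusted p from 0.0525 to 0.134), and the KO1 call without Ctrl replicate 1 (adjusted p = 0.0639).

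The non-oxidative branch was not uniform. Taldo1 (chromosome 7, 141392160 to 141402976), which encodes transaldolase, had 59.4, 54.1 and 65.1 CPM in KO2, 64.5, 70.0 and 66.0 CPM in KO1 and 95.5, 96.4 and 86.9 CPM in Ctrl. Both knockout lines were below every control library and overlapped each other. Taldo1 changed on the log2 scale by -0.64 ± 0.0811 in KO2 (SE; edgeR adjusted p = 5.84e-05) and by -0.48 ± 0.0807 in KO1 (SE; edgeR adjusted p = 0.00107), and the lines differed by -0.17 (edgeR adjusted p = 0.103). That difference was called without KO2 replicate 3 (-0.23, adjusted p = 0.045), with total count scaling (-0.27, adjusted p = 0.0111) and by limma on the log2(FPKM + 1) and log2(FPKM + 0.1) scales (-0.27 and -0.28). Tkt, the transketolase gene, had 320 ± 21.4 CPM in KO2, 234 ± 25 CPM in KO1 and 258 ± 12.3 CPM in Ctrl (SD, n = 3). Tkt rose in KO2 (log2 fold change 0.31; edgeR adjusted p = 0.0107) and was at -0.14 in KO1 (edgeR adjusted p = 0.24). Me1, the cytosolic malic enzyme, had 90.5 ± 5.47 CPM in KO2, 86.0 ± 6.07 CPM in KO1 and 76.8 ± 3.46 CPM in Ctrl (SD, n = 3). Its log2 fold change of 0.24 in KO2 (edgeR adjusted p = 0.0203) was not called without Ctrl replicate 2, Ctrl replicate 3 or KO2 replicate 3 (adjusted p from 0.0566 to 0.0883) and was 0.15 on the log2(FPKM + 1) scale; the value in KO1 was 0.16 (edgeR adjusted p = 0.127).

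Of all 32 genes, Nqo1 differed most between the lines. Nqo1 (chromosome 8, 107388225 to 107403205), a quinone reductase that is widely used as a readout of NRF2 activity, had 31.2, 28.6 and 31.6 CPM in KO2, 4.77, 5.14 and 4.59 CPM in KO1 and 13.6, 10.7 and 11.5 CPM in Ctrl. The groups were fully separate and tight. Nqo1 changed on the log2 scale by 1.36 ± 0.105 in KO2 (SE; edgeR adjusted p = 1.21e-06), or 2.56-fold, and -1.30 ± 0.112 in KO1 (SE; edgeR adjusted p = 8.64e-06), or 0.406-fold. The lines differed by 2.66 ± 0.113 (SE; edgeR adjusted p = 9.16e-09), or 6.30-fold.

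The biliverdin reductases recycle the product of heme breakdown into the antioxidant bilirubin. Blvrb had 25, 22 and 24.4 CPM in KO2, 9.59, 10.9 and 11.5 CPM in KO1 and 9.77, 11.9 and 9.72 CPM in Ctrl. Its KO2 libraries stood above the rest, and KO1 overlapped Ctrl. Blvrb rose 2.27-fold in KO2 (log2 fold change 1.18 ± 0.113, SE; edgeR adjusted p = 6.41e-06), with 0.03 in KO1 (edgeR adjusted p = 0.88). Blvra had 36.4 ± 0.702 CPM in KO2, 28.5 ± 3.06 CPM in KO1 and 23.7 ± 1.25 CPM in Ctrl (SD, n = 3). It rose in KO2 (log2 fold change 0.62; edgeR adjusted p = 0.000148), while its 0.26 in KO1 (edgeR adjusted p = 0.0441) was not called on leaving out any library but KO1 replicate 1 (adjusted p from 0.0537 to 0.152), nor with the replicate block, and it was 0.17 without KO1 replicate 2.

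The last 3 genes are a reductase, a sugar-nucleotide enzyme and an exporter. Cbr1, a carbonyl reductase, had 12.8 ± 0.150 CPM in KO2, 10.6 ± 1.60 CPM in KO1 and 16.0 ± 2.18 CPM in Ctrl (SD, n = 3). Cbr1 fell in KO1 (log2 fold change -0.60; edgeR adjusted p = 0.005), and its -0.32 in KO2 was just outside the threshold (edgeR adjusted p = 0.0575), though called without Ctrl replicate 2 (adjusted p = 0.0257), KO1 replicate 1 (adjusted p = 0.0285) or KO1 replicate 2 (adjusted p = 0.0491). The fall of Cbr1 in KO2 was called as well with total count scaling, on both FPKM scales and with only the 2 groups compared. Without KO1 replicate 2, Cbr1 was also called between the lines (adjusted p = 0.0261, against 0.0924 with all libraries). Ugdh, which makes the UDP-glucuronic acid used in conjugation, had 283 ± 6.52 CPM in KO2, 243 ± 42.9 CPM in KO1 and 202 ± 35.2 CPM in Ctrl (SD, n = 3). Ugdh rose in KO2 (log2 fold change 0.49; edgeR adjusted p = 0.0125) and was at 0.27 in KO1 (edgeR adjusted p = 0.171); between the lines it was at 0.22 (edgeR adjusted p = 0.205, and 0.0216 without KO1 replicate 2). Abcc1, the exporter of glutathione conjugates, had 194 ± 6.80 CPM in KO2, 168 ± 20.1 CPM in KO1 and 193 ± 30.0 CPM in Ctrl (SD, n = 3), with no call in any comparison.

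**Figure D3:**
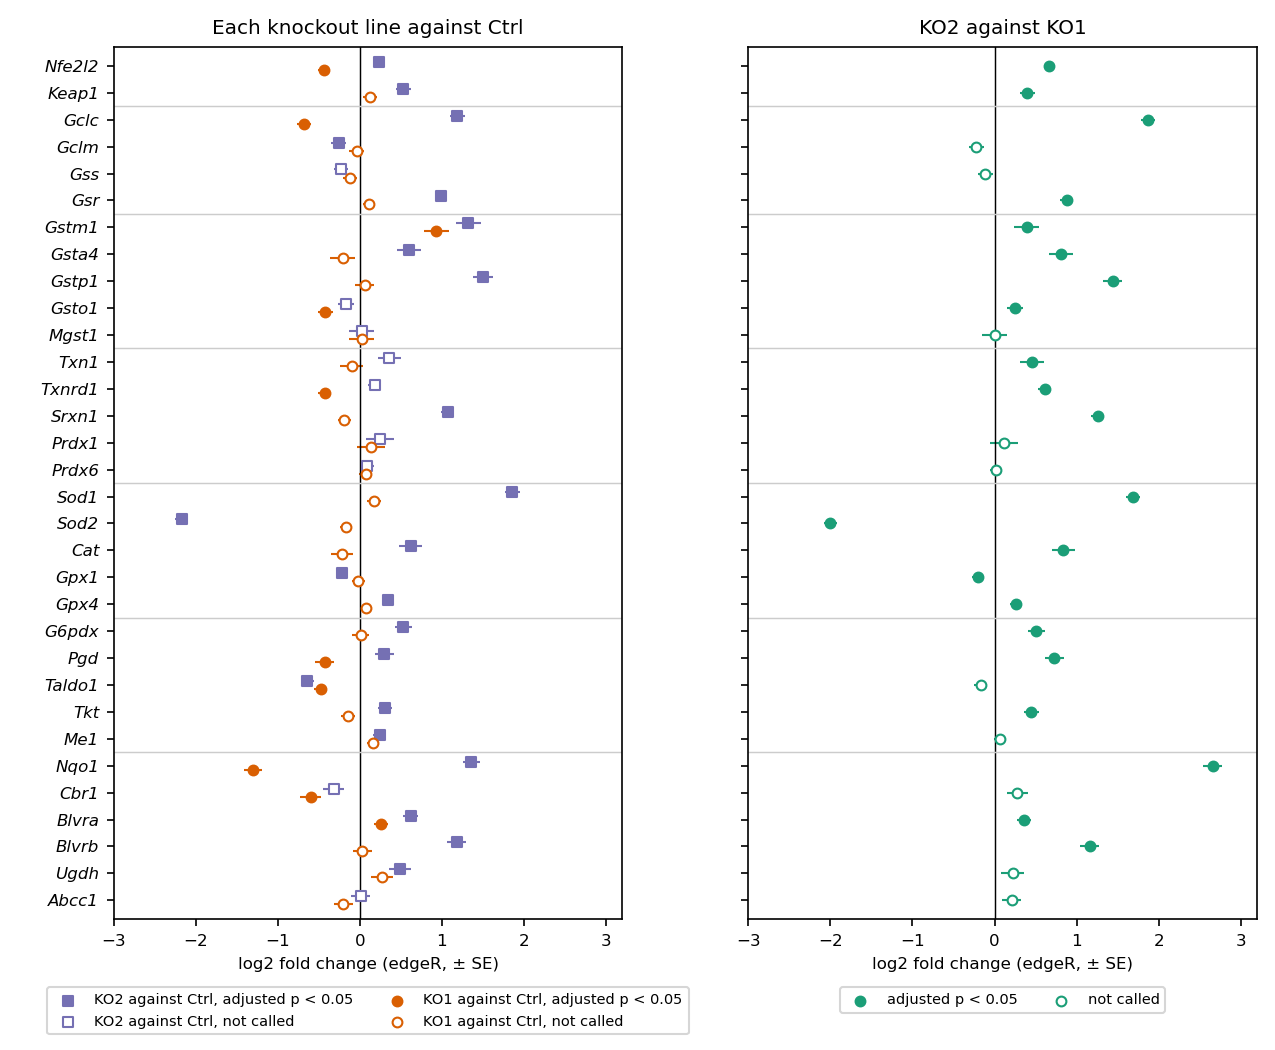
Log2 fold changes (edgeR, ± SE) of the 32 genes, ordered by role, for KO2 (squares) and KO1 (circles) against the same 3 Ctrl libraries on the left and for KO2 against KO1 on the right; filled symbols passed an adjusted p of 0.05. Sod1 (1.86) and Sod2 (-2.17) mark the ends in KO2, Nqo1 is lowest in KO1 (-1.30) and differs most between the lines (2.66).

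By role, the calls in KO2 were spread over every class, beside a background of 24.6% higher and 29.5% lower over all tested genes. The NRF2 control pair was higher in 2 of 2 cases, and NADPH supply had 4 higher and 1 lower of 5. Glutathione synthesis and recycling had 2 higher and 1 lower of 4, and the transferases 3 higher of 5. Superoxide and peroxide removal had 3 higher and 2 lower of 5, and the quinone, carbonyl, biliverdin and export genes 4 higher of 6. Of the thioredoxin and peroxiredoxin genes, 1 of 5 was higher. In KO1, where 30.5% of all tested genes were called, no gene of superoxide and peroxide removal was called, and each other class had 1 or 2 genes lower. KO2 and KO1 share their control libraries, so each line's own values stand here side by side and no overlap between them is given.

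**Figure D4:**
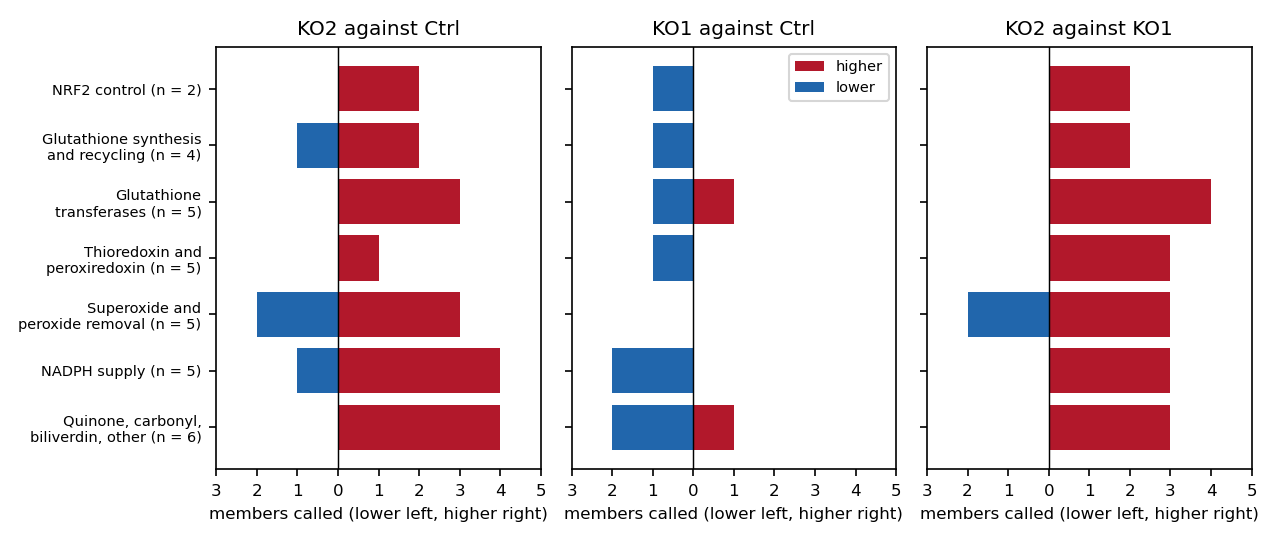
Number of genes called higher (right of 0) or lower (left of 0) at an adjusted p under 0.05 in each role class, with the class size beside its name, for KO2 against Ctrl, KO1 against Ctrl and KO2 against KO1. In KO2 against Ctrl, 19 of the 32 genes are to the right and 4 to the left, beside 24.6% and 29.5% of all tested genes. In KO1 against Ctrl, 2 are to the right and 8 to the left, beside 15.6% and 14.9%. The 31.2% called in KO1 in either direction is near the background of 30.5%.

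Further genes of the same pathways were taken from 6 lists of 115 names, of which 93 were tested. In KO2, 25 were higher and 33 lower, with a median log2 fold change of -0.11 and the same backgrounds of 24.6% and 29.5%. Unlike the 32 genes, some of them averaged under 13.1 CPM, and most of these that were called in KO2 were lower. Mean levels in Ctrl went down to 0.303 CPM among the genes lower in KO2 and to 2.09 CPM among those higher. The direction among genes of like level was not tested. In KO1, 24 of the 93 were higher and 12 lower with a median of 0.01 (background 15.6% and 14.9%). Between KO2 and KO1, 24 were higher and 33 lower with a median of -0.10 (background 25.5% and 29.5%). The same backgrounds apply to each list that follows. Of 13 other glutathione transferases tested, 2 were higher and 6 lower in KO2 against Ctrl, and their median was -0.64. In KO1 against Ctrl 8 of the 13 were higher and 0 lower with a median of 0.74, and these 8 averaged 0.472 to 16.4 CPM in Ctrl. In KO2 against KO1 2 of the 13 were higher and 8 lower. The partners and regulators of NRF2 had 3 higher and 4 lower of 10 in KO2 and 1 higher in KO1. Other NRF2 targets, 20 in number, gave 7 calls up and 7 down in KO2, and 4 up and 5 down in KO1. The other glutathione genes had 2 higher and 5 lower of 14 in KO2, and 3 higher and 4 lower in KO1. The other thioredoxin and peroxidase genes had 7 higher and 7 lower of 23 in KO2, and 6 higher and 1 lower in KO1. The other NADPH genes had 4 higher and 4 lower of 13 in KO2, and 2 higher and 2 lower in KO1.

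Among genes of these lists with at least 5 CPM over the 9 libraries, the largest changes in KO2 included both directions for known NRF2 targets. Hmox1, the heme oxygenase gene that supplies biliverdin, had 9.24, 7.19 and 9.79 CPM in KO2, 13.2, 15.6 and 13.2 CPM in KO1 and 17.0, 24.0 and 27.7 CPM in Ctrl, below Ctrl in every library of both lines. Its log2 fold change was -1.39 in KO2 (edgeR adjusted p = 7.59e-05) and -0.71 in KO1 (edgeR adjusted p = 0.00978). Aldh3a1, an aldehyde dehydrogenase gene, had 102, 101 and 103 CPM in KO2, 32.4, 53.3 and 43.7 CPM in KO1 and 36.4, 31 and 36.3 CPM in Ctrl (1.56 in KO2; edgeR adjusted p = 7.9e-06). The gene for the small MAF protein Mafk, a partner of NRF2 on DNA, fell by 1.35 on the log2 scale in KO2 (edgeR adjusted p = 5.53e-05). Idh1, the cytosolic NADP-dependent isocitrate dehydrogenase gene, rose in KO2 (1.57; edgeR adjusted p = 0.00127).

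Extracellular superoxide dismutase, Sod3, went opposite ways in the lines. It had 0.622, 0.881 and 1.33 CPM in KO2, 18.3, 19.6 and 18.7 CPM in KO1 and 3.43, 3.49 and 2.58 CPM in Ctrl, with no overlap between groups. It reached the 5 CPM needed to be named through the KO1 libraries alone, and genes as low as Sod3 in KO2 and Ctrl are otherwise not named. Its log2 fold change was -1.75 in KO2 (edgeR adjusted p = 6.71e-05; -0.84 on the log2(FPKM + 1) scale), 2.57 in KO1 (edgeR adjusted p = 1.91e-06) and -4.32 between the lines (edgeR adjusted p = 2.91e-08). Sesn3, a sestrin gene, rose in both lines (1.13 in KO2 and 1.09 in KO1; edgeR adjusted p = 0.000109 and 0.000347).

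The exporter gene Abcc3 rose by 0.87 in KO2 (edgeR adjusted p = 1.61e-06) and by 1.35 in KO1 (edgeR adjusted p = 1.59e-07). Ptgr1, a reductase of electrophilic lipids, fell by 1.19 in KO2 (edgeR adjusted p = 1.55e-05) and fell by 2.46 in KO1 (edgeR adjusted p = 2.34e-07). In KO1, Akr1c13, an aldo-keto reductase gene, fell by 0.85 (edgeR adjusted p = 0.000425). Ugt1a6a, a glucuronosyltransferase gene whose exons are partly shared with its neighbours, fell by 1.00 in KO1 (edgeR adjusted p = 0.000312, and -0.54 on the log2(FPKM + 1) scale). Ugt1a6a averaged 7.05 CPM in KO2, 2.83 CPM in KO1 and 5.67 CPM in Ctrl. It thus met the 5 CPM needed to be named through the KO2 and Ctrl libraries. Between the lines, Ptgr1 (1.27; edgeR adjusted p = 1.53e-05), Ugt1a6a (1.31; edgeR adjusted p = 1.56e-05; 0.70 on the log2(FPKM + 1) scale) and Idh1 (1.51; edgeR adjusted p = 0.00152) were higher in KO2. The thioredoxin inhibitor gene Txnip (-1.53; edgeR adjusted p = 3.21e-08) and Gstm5 (-1.47; edgeR adjusted p = 1.88e-07) were lower in KO2 than in KO1. Against Ctrl, Txnip was at -0.89 in KO2 and 0.64 in KO1, and Gstm5 at -0.65 in KO2 and 0.82 in KO1, all called.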

How the data were processed

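RNA of 9 libraries (3 each of KO2, KO1 and Ctrl) was sequenced. HISAT and RSEM and the builds mm10 and GRCm38 are named by the submitters' processing notes, with no tool version. For every gene listed in a library, the deposited tables give an unscaled expected count, estimated by the authors, and an FPKM, in which the authors divided by length and library total. Genes under 0.01 FPKM are not listed and were taken as 0. Expected counts, of which 74.7% to 75.8% were whole, were rounded for the tests.

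Groups follow the sample titles; the series' design text names the sixth and ninth samples differently. EdgeR 4.0.16 in R 4.3.3 was run with filterByExpr, TMM scaling (factors 0.95 to 1.036) and a robust quasi-likelihood fit over all 9 libraries (6 residual degrees of freedom; common biological coefficient of variation 11.1%). A call was an adjusted p under 0.05. SEs are approximate, obtained by dividing the log2 fold change by the root of F. No 2 replicates of a group were alike within counting noise (chi-square per gene 8.1 to 60.4). The steps were tested on simulated data. Gene positions are RefSeq's on GRCm38. Alternatives were other scalings and filters, DESeq2 1.42.0, limma-voom and limma 3.58.1 on log2(FPKM + 1) and log2(FPKM + 0.1), the 2 groups alone, a replicate block, each library left out, a threshold of 0.01, and a change of at least 1.5-fold. All 32 genes are named; of the 6 wider lists, the 3 called genes per direction and comparison with the largest change and a mean of at least 5 CPM over the 9 libraries are named. The genes and lists were chosen with earlier results of these data known.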

Additional observations from a re-analysis of the deposited data

Results flagged for a closer look

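For 22 of the 32 genes the effect in KO2 differed from that in KO1 when the 2 lines were tested against each other (edgeR adjusted p under 0.05; background 55.0% of all tested genes in either direction). The difference of the log2 fold changes was largest for Nqo1 (2.66), Sod2 (-2.0), Gclc (1.87) and Sod1 (1.69). Gstp1 (1.44), Srxn1 (1.26), Blvrb (1.16), Gsr (0.88), Cat (0.84) and Gsta4 (0.81) came next. Pgd (0.73), Nfe2l2 (0.67), Txnrd1 (0.61), G6pdx (0.51), Txn1 (0.46), Tkt (0.45), Keap1 (0.40), Gstm1 (0.39), Blvra (0.36), Gpx4 (0.26), Gsto1 (0.25) and Gpx1 (-0.20) completed the group. The lines also differed in the Malat1 transcript left, with 27.2% of the control mean in KO2 and 0.735% in KO1. Its part in these differences was not tested.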

How the results depend on the processing

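Among called genes, 18 of 23 in KO2 against Ctrl, 8 of 10 in KO1 against Ctrl and 17 of 22 in KO2 against KO1 were called under each of the 20 alternatives that keep the 0.05 threshold, and none changed sign. The cause of the changes below was not tested, beyond the stricter thresholds, which can only remove calls. At 1.5-fold, 11 genes were higher and 2 lower in KO2 against Ctrl (3717 of all genes called, against 7400), 1 higher and 3 lower in KO1 (1890, against 4177) and 12 higher and 1 lower in KO2 against KO1 (3834, against 7529). At an adjusted p under 0.01, 14 were higher and 2 lower in KO2 against Ctrl (5445 of all genes called), 1 higher and 7 lower in KO1 (2620), and 17 higher and 1 lower in KO2 against KO1 (5556). Genes lower in KO2 against Ctrl numbered 7 with total count scaling and on both FPKM scales, and 2 with no filter. Genes higher in KO1 numbered 1 with no filter or only the 2 groups. Genes lower in KO2 against KO1 numbered 4 with total count scaling, 5 on both FPKM scales, and 1 with DESeq2, its size factors, limma-voom, no filter or only the 2 groups. Of all called genes in KO2 against Ctrl, 35.8% were higher with total count scaling and 35.4% on the log2(FPKM + 0.1) scale, against 45.5% with TMM. In KO2 against KO1 these shares were 33.4% and 33.2%, against 46.4%.

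With each library left out in turn, KO2 against Ctrl had 17 to 22 genes higher and 2 to 5 lower (6412 to 7985 of all genes), KO1 1 to 3 higher and 7 to 10 lower (3215 to 4503), and KO2 against KO1 17 to 22 higher and 1 to 3 lower (6451 to 7964). Same-numbered libraries did not deviate together (correlations -0.34 to 0.05), so the numbers give no pairing. Between differently numbered libraries the highest correlations were 0.34 (Ctrl replicate 2 with KO1 replicate 1) and 0.24 (Ctrl replicate 1 with KO1 replicate 2). A fit with the replicate block gave 18 higher and 2 lower in KO2 against Ctrl (6726 of all genes called), 1 higher and 8 lower in KO1 (3365), and 18 higher and 1 lower in KO2 against KO1 (6829).

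Sign changes touched uncalled genes only. With total count scaling, log2(FPKM + 1) and log2(FPKM + 0.1), Gpx1 in KO1 was 0.01 each time, Mgst1 in KO2 -0.05 each time, Abcc1 in KO2 -0.07, -0.06 and -0.06, and, between the lines, Mgst1 -0.10, -0.08 and -0.08, Prdx6 -0.08 each time and Me1 -0.03 each time. Mgst1 between the lines was -0.01 with upper quartile scaling and with the 1 CPM filter. With libraries left out, the range in KO1 was -0.10 to 0.03 for Gclm, -0.10 to 0.18 for Gstp1, -0.18 to 0.15 for Mgst1, -0.31 to 0.01 for Txn1, -0.10 to 0.28 for Prdx1, -0.07 to 0.06 for Gpx1, -0.12 to 0.13 for G6pdx and -0.03 to 0.13 for Blvrb. In KO2 it was -0.06 to 0.13 for Mgst1 and -0.09 to 0.13 for Abcc1, and between the lines -0.13 to 0.23 for Mgst1, -0.02 to 0.37 for Prdx1 and -0.02 to 0.09 for Prdx6. With 3 libraries a group, changes of about the size of the SE were not called, nor were some larger ones. Srxn1 in KO1 (-0.19 ± 0.0798, SE) and Cbr1 in KO2 (-0.32 ± 0.13, SE) were among the latter.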
